A study of Mus musculus with 9 samples.

Results

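The window of mouse chromosome 5 that holds Shh and its distant limb enhancer was examined in 9 lists of HOXA13 and HOXD13 binding from distal forelimb cells. It runs from 28.3 to 29.5 Mb on mm10 (1.2 Mb) and holds Shh, Rnf32 and Lmbr1, with Rbm33 on one side and Nom1 and Mnx1 on the other. Every peak interval that lay in the window was taken, which gave 200 of the 632469 intervals of the 9 lists. Intervals that shared at least 1 bp were merged into 71 sites, of 193752 sites in the genome without the part of chromosome 2 from 75 Mb on, where the lists of the 2 genotypes do not share coordinates. No interval crossed an edge of the window.

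Binding was mapped by CUT&RUN, in which a nuclease tethered to the protein by an antibody releases the DNA fragments it sits on. Cells came from distal forelimbs of B6CBAF1 embryos, each replicate a separate pool over several embryos. Wild-type (wt) embryos labelled E12.5 gave 3 HOXA13 and 3 HOXD13 libraries, of which wt HOXD13 replicate 3 is an earlier library that the study analysed again. The line called II1TDOM 542 (542 below), a single breeding line studied as homozygous embryos, carries an extra copy of the limb enhancer II1 with a promoter and the lacZ reporter within T-DOM, which flanks the HoxD cluster telomerically on chromosome 2 and holds its proximal limb enhancers. From it came 2 HOXA13 libraries at E12.5 and, for HOXD13, 1 library whose label reads E11.5. The labels describe a single collection day for all samples, so that the stage of this last library is given only as its label has it. The insert does not touch chromosome 5, but 542 reads were mapped on a mutant genome, so that genotype and mapping genome cannot be told apart.

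Shh encodes Sonic hedgehog, a secreted signal made in the posterior limb bud by the zone of polarizing activity, where it sets the number and identity of digits. Its limb expression depends on an enhancer in an intron of Lmbr1, a gene of unrelated function far from Shh. The enhancer is called the ZRS, for zone of polarizing activity regulatory sequence. Rnf32, a RING finger gene, lies between both. HOXA13 and HOXD13 are homeodomain factors of the distal limb and, as posterior HOX proteins, prefer sites with a TAAA core. RefSeq places the ZRS at 29314497 to 29315862 (1366 bp), in intron 5 of Lmbr1 (29292950 to 29323801) and 847.2 kb from the start of Shh, and annotates 4 stretches in it, Hoxsites 1 to 4, as bound by HOXD proteins.

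The central stretch of the ZRS is shown because most summits fell in it. It is chr5:29315073-29315334 (GRCm38, plus strand, from RefSeq's assembly), with Hoxsite 4 and then the adjoining Hoxsites 3, 2 and 1 in capitals.
ZRS, central stretch: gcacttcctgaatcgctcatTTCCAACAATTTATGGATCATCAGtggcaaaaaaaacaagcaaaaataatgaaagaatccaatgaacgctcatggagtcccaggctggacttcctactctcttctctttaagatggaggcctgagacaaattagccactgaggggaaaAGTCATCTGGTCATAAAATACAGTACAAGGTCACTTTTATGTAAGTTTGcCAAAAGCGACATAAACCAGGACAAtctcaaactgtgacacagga
The Hoxsites are given again one by one on the plus strand, with CATAAA or its reverse complement TTTATG in capitals.
Hoxsite 1: caaaagcgaCATAAAccaggacaa
Hoxsite 2: acaaggtcactTTTATGtaagtttg
Hoxsite 3: agtcatctggtCATAAAatacagtaca
Hoxsite 4: ttccaacaaTTTATGgatcatcag
RefSeq lists homeobox D9, D11, D12 and D13 for Hoxsite 1 (29315291 to 29315314), D9 and D11 for Hoxsite 2 (29315265 to 29315289), D9 to D13 for Hoxsite 3 (29315241 to 29315267) and D9 and D11 for Hoxsite 4 (29315093 to 29315116). The word CATAAA, on either strand, was present in 4 of 4 Hoxsites and 7 times in the whole ZRS. Stretches of the same length laid end to end over the window, the ZRS included, held it a median of 1 time. Only 1 of the 878 held it as often as the ZRS, and that stretch was the one that covers these 7 matches of the ZRS itself. The Hoxsites cover 97 bp, or 7.1% of the ZRS, and span 222 bp.

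Between 23939 and 117719 intervals were called per library, and the depth recovered from the lists was 36.9 to 65.5 M read ends, with M for mega as in Mb. wt HOXD13 replicates 1 and 3 were the shallowest of all (38.6 and 36.9 M) and their lists the shortest. Replicate 3 of both antibodies differed from the other wt libraries in which strong intervals it held, and results are given without it where that moves them. Heights are given as pileup per M read ends, that is, the number of read ends stacked at the summit divided by the depth of the library, with an exact Poisson 95% interval. Such intervals cover counting error only and are too narrow, because both ends of a fragment and its duplicates were counted.

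HOX13 binding was called inside the ZRS in 7 of 9 lists, which were 3 of 3 wt HOXA13, 1 of 3 wt HOXD13, 2 of 2 542 HOXA13 and the 542 HOXD13 list. In wt HOXA13 replicate 1 the main summit, the one with the highest −log10 p, lay at 29315245 in Hoxsite 3, with a pileup of 47 read ends (0.851 per M, 95% interval 0.625 to 1.13) and a fold enrichment of 3.90 over local background. Replicate 2 had its main summit 1 bp away at 29315244, with 27 read ends (0.574 per M, 0.378 to 0.834) and a fold enrichment of 3.10. Replicate 3 had it at 29315115 in Hoxsite 4, with 19 read ends (0.426 per M, 0.257 to 0.666) and 2.97. The intervals of these 3 libraries overlap each other.

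Among the wt HOXD13 libraries only replicate 2, the deepest of them, had a summit in the ZRS. It lay at 29315418, 104 bp past Hoxsite 1, with 37 read ends (0.618 per M, 0.435 to 0.852) and a fold enrichment of 4.11, within the range of the wt HOXA13 heights. A lower summit of the same interval lay at 29315147, 31 bp from Hoxsite 4. In replicates 1 and 3 no ZRS summit was called. The lowest pileup called at genome background was 13 read ends in replicate 1 (0.337 per M) and 12 in replicate 3 (0.325 per M), so that a signal under that level was not detectable there. The level at the ZRS itself may have been higher, since the background there was above genome background in every wt library that called it.

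In the 542 HOXA13 libraries the main ZRS summits lay in Hoxsite 2. Replicate 1 had it at 29315283 with 81 read ends (1.27 per M, 1.01 to 1.58) and replicate 2 at 29315282 with 35 read ends (0.782 per M, 0.545 to 1.09), at fold enrichments of 4.69 and 3.45. The 542 HOXD13 library had it at 29315246 in Hoxsite 3 with 97 read ends (1.48 per M, 1.201 to 1.81) and a fold enrichment of 4.64, the highest pileup per M at the ZRS in the 9 lists. Over the 7 lists the main summit lay inside a Hoxsite in 6, which were 3 in Hoxsite 3, 2 in Hoxsite 2 and 1 in Hoxsite 4. None lay inside Hoxsite 1. All 7 had CATAAA within 25 bp on either strand, as did 20.4% of the positions of the ZRS and 3.54% of those of the window. Over all main summits of the 9 lists the share was 9.82% ± 1.95 (SD, n = 9), against 3.63% ± 0.18 in windows 1000 bp to each side. The word was chosen after the Hoxsites had been read, so that these counts are a description.

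**Figure D1:**
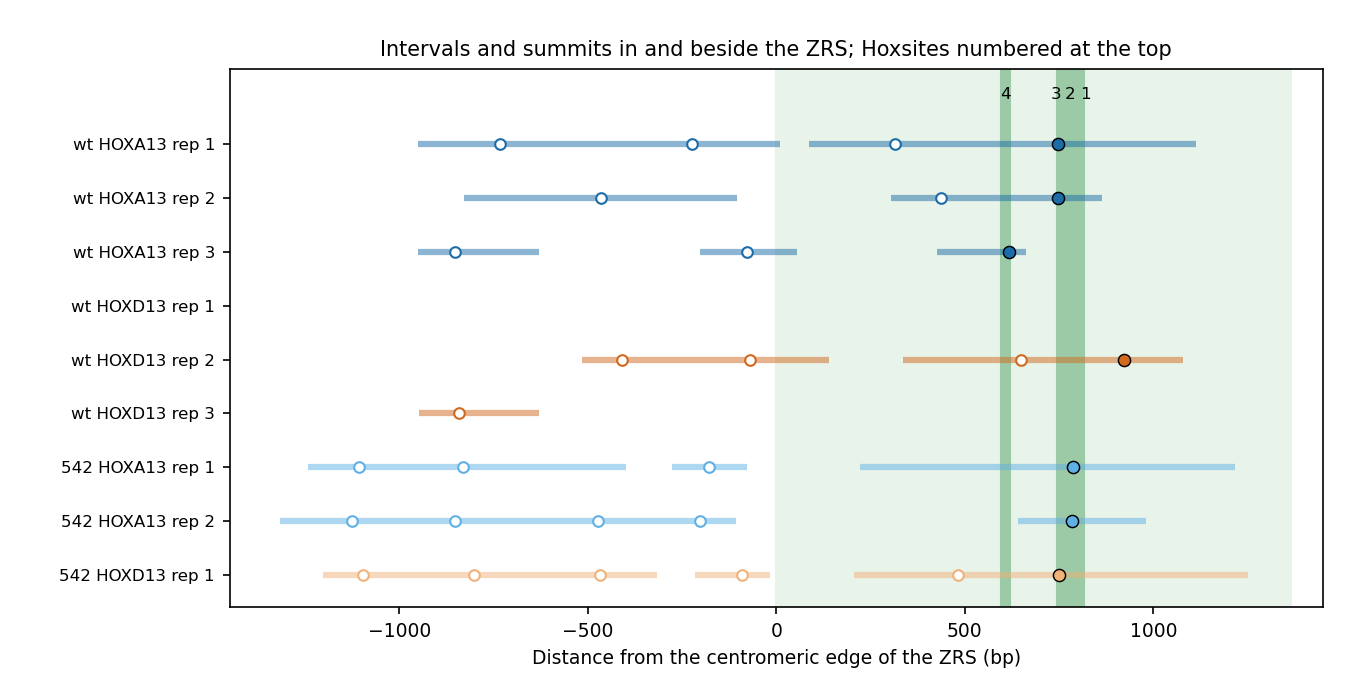
Intervals (bars) and summits (circles) of each list in and beside the ZRS, by distance in bp from the edge of the ZRS nearer the centromere. Light green marks the ZRS and dark green its 4 Hoxsites. Filled circles are the main ZRS summits, 6 of 7 of which lie in a Hoxsite, and open circles are other summits. wt HOXD13 replicate 1 has no interval here and replicate 3 none inside the ZRS.

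Many intervals of each list were stronger than the ZRS. Between 30.5% and 69.2% of the intervals of a list had a higher fold enrichment than its ZRS summit, and between 17.8% and 64.9% had a higher −log10 p. No list kept the ZRS at a fold enrichment of at least 5, while 6 lists kept an interval over it at a −log10 q of at least 5.

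A further stretch of binding lay just beside the ZRS, on the side of Shh, and was merged with it into a single site of intron 5 (29313181 to 29315749) called in 8 of 9 lists. The exception was wt HOXD13 replicate 1. Of the 7 lists with a ZRS summit, 4 had a higher pileup here than in the ZRS. The highest flank summit stood at 0.869, 0.680 and 0.426 per M in wt HOXA13 replicates 1, 2 and 3, and at 0.468 and 0.379 in wt HOXD13 replicates 2 and 3. It reached 1.46 and 0.961 in 542 HOXA13 and 0.855 in 542 HOXD13. The flank was thus lower than the ZRS in both HOXD13 libraries that called them both (0.468 beside 0.618 in wt replicate 2 and 0.855 beside 1.48 in 542). In wt HOXD13 replicate 3 only the flank was called. The flank was equal to the ZRS in wt HOXA13 replicate 3 and higher in the other HOXA13 libraries. In wt HOXA13 replicate 1 this was by 48 read ends against 47. The contrast was seen after the values and not tested.

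The flank is shown because it holds the HOX13 consensus that the ZRS lacks. The consensus searched was CCNATAAA, CTNATAAA, CCNGTAAA or CTNGTAAA on either strand, with N for any base, and had 0 matches in the 1366 bp of the ZRS, while 56.5% of stretches of that length over the window held at least 1. The flank held 3, of which the one at 29313667 to 29313674 lay within 25 bp of the highest summits of wt HOXD13 replicate 3 (29313655) and 542 HOXA13 replicate 1 (29313665). It is printed in capitals in chr5:29313631-29313711 (GRCm38, plus strand).
Flank of the ZRS: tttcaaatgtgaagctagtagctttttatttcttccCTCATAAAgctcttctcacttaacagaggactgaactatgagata

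The comparison of antibodies and genotypes was made on the whole intron 5 site, at its highest summit. That summit lay beside the ZRS in the HOXA13 libraries, with an equal one inside in wt replicate 3, and in wt HOXD13 replicate 3. In wt HOXD13 replicate 2 it lay inside the ZRS, at 29315418, so that the antibody comparison sets different places side by side. wt HOXA13 had 0.869, 0.680 and 0.426 per M and the wt HOXD13 libraries that called it had 0.618 and 0.379, so that the groups overlapped. HOXA13 was 1.30 times HOXD13 (mean difference 0.38 on the log2 scale), within the spread of the libraries (exact permutation of the labels, two-sided, 3 against 2, p = 0.4, or 0.467 adjusted over 7 tests, with 0.1 the smallest possible). With summits inside the ZRS only, the log2 difference was −0.062 with 1 HOXD13 library left (exact permutation p = 1). The 542 HOXA13 libraries had 1.46 and 0.961 per M, both above the 3 wt values. Their mean was 1.87 times that of wt (0.91 on the log2 scale, exact permutation, 2 against 3, p = 0.2, adjusted 0.467). Inside the ZRS alone it was 0.75 (exact permutation p = 0.3), and the lower 542 value, 0.782, lay below the highest wt value, 0.851. Neither difference passed the test, in which 0.1 was the smallest possible p for both, so that the threshold of 0.05 was out of reach.

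**Figure D2:**
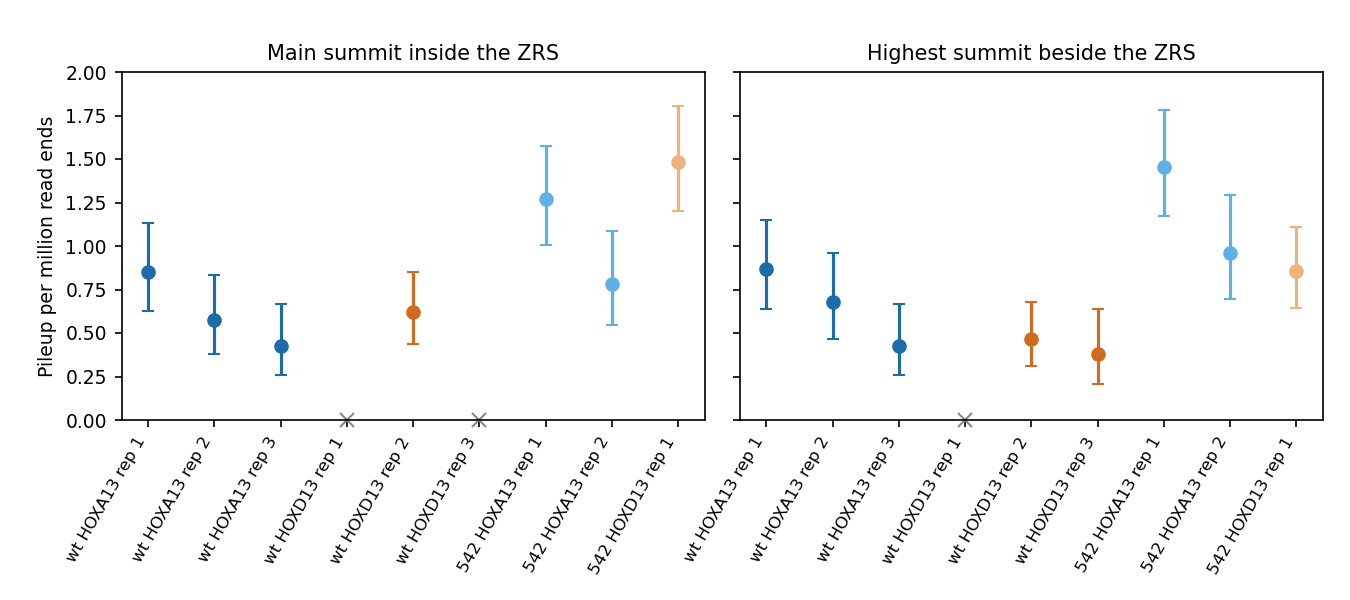
Pileup per M read ends of the 9 libraries at the main summit inside the ZRS (left) and at the highest summit beside it (right). Bars are exact Poisson 95% intervals, and crosses mark libraries with no summit called, which is not a measured 0. The 542 libraries reach 1.27, 0.782 and 1.48 in the ZRS and the wt libraries 0.426 to 0.851.

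At Shh itself the only site shared by most lists lay in intron 1 of the gene (28465064 to 28466263), about 1.8 kb inside its start, and was called in 8 of 9 lists, without wt HOXA13 replicate 2. wt HOXA13 replicates 1 and 3 had 0.959 and 0.763 read ends per M there. wt HOXD13 had 0.493, 0.501 and 0.461. The 542 HOXA13 libraries had 1.36 and 1.14, and the 542 HOXD13 library 0.489. Where the site was called, the HOXA13 values of either genotype lay above all 4 HOXD13 values. This order was noticed in the data and not tested, and it leaves out wt HOXA13 replicate 2, which had no call. That library was deeper than wt HOXD13 replicates 1 and 3, which called the site (47.1 against 38.6 and 36.9 M read ends). Its lowest pileup called at genome background was 0.297 per M, under the HOXD13 values of 0.461 to 0.501. A height above the HOXD13 values would have passed that level, so that the order did not hold over all HOXA13 libraries as far as calls show. The local background of this library at the site is not known. The main summits kept within 51 bp of each other, from 28465452 to 28465503. No consensus lay within 25 bp of any of them, and the nearest match within the site was 696 bp from a main summit.

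The start of Shh was otherwise free of calls. An interval came within 1000 bp of it in 1 of 9 lists, 542 HOXD13, through a further weak interval of the intron 1 site that ended at 28466263, whereas 63.7% of protein-coding genes had an interval within that distance in at least 1 wt list. Weak sites lay in exon 3, in wt HOXA13 replicates 1 and 2 and wt HOXD13 replicate 2 (0.382 to 0.401 per M), and in intron 2, in 542 HOXA13 replicate 2 and 542 HOXD13 (0.380 and 0.519).

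RefSeq annotates 11 regulatory regions in the window, and 5 of them were overlapped by an interval in at least 1 list. For comparison, 67.5% of the 813 enhancer loci that RefSeq gives for the genome were overlapped in at least 1 list and 18.9% in all 6 wt lists, while 0 of the 11 were overlapped in all 6 wt lists. The loci of the genome were longer, with a median of 2166 bp, while the 11 regions measured 408 to 1800 bp. The part of length in these shares was not tested. The ZRS led with 7 lists. Floor plate enhancer 1, which drives Shh in the ventral neural tube (28476090 to 28477188, 9.4 kb before the start), was called in 6, namely wt HOXA13 replicates 1 and 2 (0.742 and 0.531 per M), wt HOXD13 replicate 2 (0.485), both 542 HOXA13 libraries (1.14 and 1.07) and 542 HOXD13 (0.290). Its 542 HOXA13 fold enrichments of 9.07 and 7.98 were the highest of any annotated Shh enhancer in these lists.

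The mammal fish conserved sequence 3 (MFCS3, 29146128 to 29147426, 679.5 kb from the start of Shh), a conserved element of the desert before Rnf32, was called in 5 lists. In wt these were HOXA13 replicates 1 and 2 (0.760 and 0.297 per M) and no HOXD13 list, and in 542 both HOXA13 libraries (0.360 and 0.358) and HOXD13 (0.305) called it. Only wt HOXA13 replicate 1 stood clearly above the rest. It is shown because it holds the consensus, at 29146493 to 29146500, within 25 bp of both 542 HOXA13 main summits (chr5:29146457-29146537, GRCm38, plus strand, match in capitals).
MFCS3: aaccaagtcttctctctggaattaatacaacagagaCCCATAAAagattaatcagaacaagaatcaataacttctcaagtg
A neighbouring site of the desert (29149342 to 29149813) was likewise called among wt lists in HOXA13 replicates 1 and 2 alone (0.326 and 0.361 per M), and in 542 HOXA13 replicate 1 (0.423). No other site of the window was called in more than 1 wt list of an antibody and in none of the other. Among those in 1 wt list, the site with the highest median rank lay in intron 10 of Rbm33 (28370541 to 28371039), at 0.362 per M in wt HOXA13 replicate 1, 0.6575 in 542 HOXA13 replicate 1 and 0.886 in 542 HOXD13.

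Shh brain enhancer 4 (28785203 to 28786335) was called in 4 lists at 0.407 to 0.579 per M and had CATAAA within 25 bp of the main summit in 4 of 4. The brain enhancer in intron 2 of Shh was overlapped in 542 HOXD13 alone. The lung-gut enhancer, brain enhancers 2 and 3, MFCS4, mammal reptile conserved sequence 1 and mammal amphibian conserved sequence 1 were overlapped in no list.

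**Figure D3:**
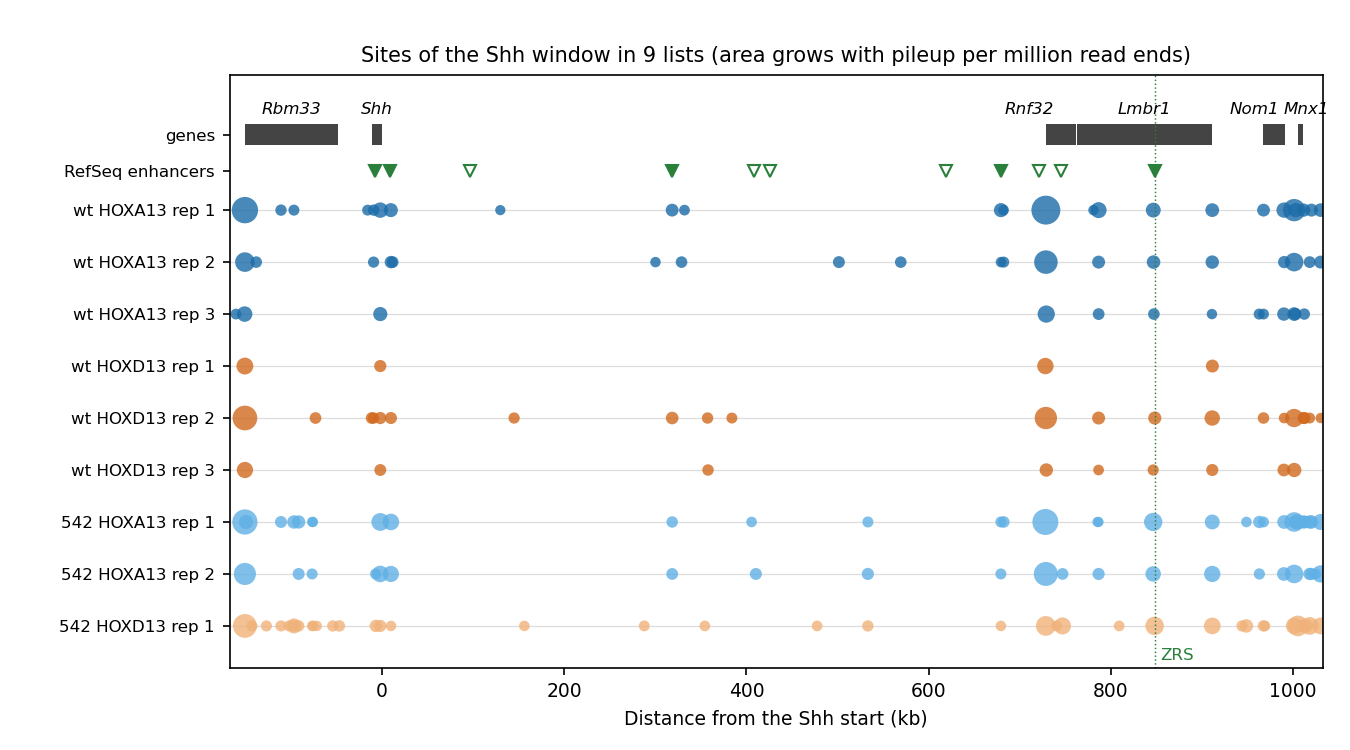
Main summit of every site in each list, by distance in kb from the start of Shh. The area of a circle grows with pileup per M read ends. Dark boxes are protein-coding genes, and triangles are the 11 RefSeq regulatory regions, filled for the 5 that an interval overlaps. Circles line up at the promoters of Rbm33, Rnf32 and Lmbr1 in 9 of 9 lists, and most of the desert between Shh and Rnf32 holds circles of single lists.

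Both other members had intervals at their promoters, called like all others with no control. At the promoters of Rbm33, Rnf32 and Lmbr1 alike, the consensus lay within 25 bp of the main summit in 0 of 9 lists. The study read a peak over the promoter of its transgene as likely non-specific nuclease signal. The part of such signal at these promoters was not tested. The Rnf32 promoter site (29194636 to 29196743) was called in 9 of 9 lists and was the tallest of the window in wt HOXA13, at 4.02, 2.57 and 1.26 read ends per M in replicates 1, 2 and 3. wt HOXD13 had 1.12, 2.29 and 0.650, 542 HOXA13 3.19 and 2.68, and 542 HOXD13 1.73. Replicate 3 was the lowest library of each antibody in wt. The Lmbr1 promoter site (29378012 to 29379076), whose strongest wt summit lay 45 bp outside the gene, was also called in 9 of 9. It was lower, at 0.706, 0.658 and 0.292 in wt HOXA13, 0.597, 0.953 and 0.488 in wt HOXD13, 0.877 and 1.10 in 542 HOXA13 and 1.161 in 542 HOXD13. At each of these promoters the ranges of the antibodies overlapped in wt.

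Elsewhere in Lmbr1, a site in intron 14 (29253450 to 29254235) was called in 7 lists, all but wt HOXD13 replicate 1 and 542 HOXD13. It had 1.05, 0.595 and 0.449 per M in wt HOXA13, 0.602 and 0.325 in wt HOXD13, and 0.266 and 0.492 in 542 HOXA13. The remaining sites of Rnf32 and Lmbr1 were called in 1 or 2 lists, such as an intron of Rnf32 (29213827 to 29214720) at 1.22 per M in 542 HOXD13 and 0.447 in 542 HOXA13 replicate 2.

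Among the neighbouring genes, the promoter of Rbm33 (28316052 to 28317744) was called in 9 of 9 lists at 0.965 to 3.29 per M. A further weak interval within 1000 bp of its start (28317983 to 28318182) was called in 542 HOXA13 replicate 1. The promoters of Nom1 (29434500 to 29435447, 0.337 to 0.579 per M) and of Mnx1, a homeobox gene of motor neurons and pancreas (29478166 to 29478853 and 29479028 to 29479645, 0.404 to 0.633 per M), were each called in 5 lists. A site past the end of Mnx1 (29467611 to 29468783, 4704 bp from the gene) was called in 8 lists, at 2.28, 1.51 and 0.696 per M in wt HOXA13 and 1.45 and 0.786 in wt HOXD13 replicates 2 and 3. It is shown as the site of the window with the consensus at its summit in most lists, at 29468324 to 29468331 and within 25 bp of 4 of 8 main summits (chr5:29468290-29468370, GRCm38, plus strand, with the reverse complement of CTAATAAA in capitals).
Site past Mnx1: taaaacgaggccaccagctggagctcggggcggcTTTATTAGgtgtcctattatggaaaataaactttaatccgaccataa

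**Figure D4:**
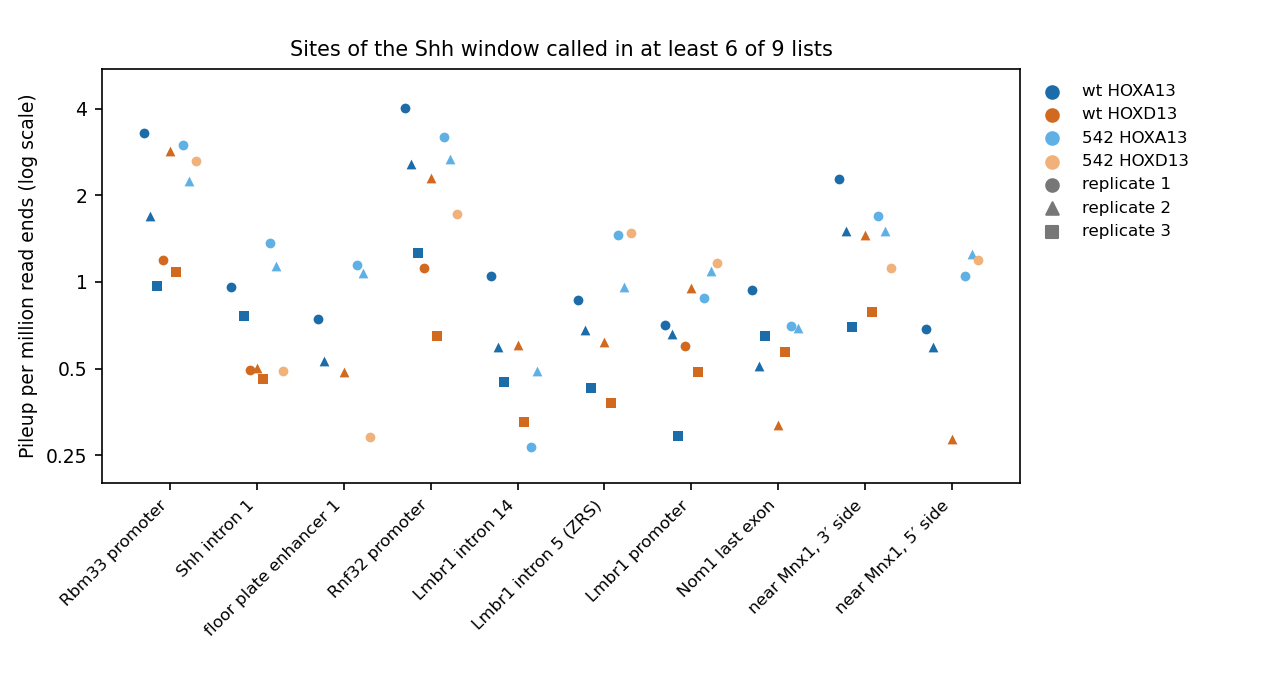
Pileup per M read ends (log scale) of the 10 sites called in at least 6 of 9 lists, in order along the chromosome. Colours give genotype and antibody and shapes the replicate. At the Shh intron 1 site the HOXA13 values that were called (0.763 to 1.36) lie above the HOXD13 values (0.461 to 0.501). wt HOXA13 replicate 2 has no call there. At the promoters of Rnf32 and Lmbr1 the antibodies overlap.

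Whether the window was rich or poor in HOX13 binding was asked by comparing its intervals per Mb with those of all chromosomes in the same list. The window held fewer in 6 of 6 wt libraries and in 3 of 3 542 libraries. Per library it held 25, 20 and 15 intervals in wt HOXA13, 5, 22 and 10 in wt HOXD13, 36 and 23 in 542 HOXA13 and 44 in 542 HOXD13. The density relative to the genome was 0.675 ± 0.092 (SD, n = 3) in wt HOXA13, 0.577 ± 0.091 (SD, n = 3) in wt HOXD13, 0.765 ± 0.087 (SD, n = 2) in 542 HOXA13 and 0.849 in 542 HOXD13. In wt the mean log2 ratio was −0.69 ± 0.23 (SD, n = 6; exact permutation of the signs, two-sided, p = 0.031, the smallest that 6 libraries allow, or 0.109 when adjusted), so that it did not pass the threshold of 0.05. Without intervals within 1000 bp of gene starts, in the window and the genome alike, it was −1.163 (exact permutation p = 0.031, an alternative added after the data were seen). The median fold enrichment of window intervals was 2.97 to 4.41 and that of all intervals 3.24 to 4.19.

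No difference in relative density between groups passed the test, but neither comparison could give an exact permutation p under 0.1, so that the threshold of 0.05 was out of reach. wt HOXA13 exceeded wt HOXD13 by 0.23 on the log2 scale (exact permutation, 3 against 3, p = 0.4, adjusted 0.467), and by 0.36 without replicate 3 of either (exact permutation, p = 0.333). 542 HOXA13 exceeded wt HOXA13 by 0.18 (exact permutation, 2 against 3, p = 0.4, adjusted 0.467), and with the 10000 strongest intervals of each list the sign turned, to −0.39 (exact permutation p = 0.2).

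**Figure D5:**
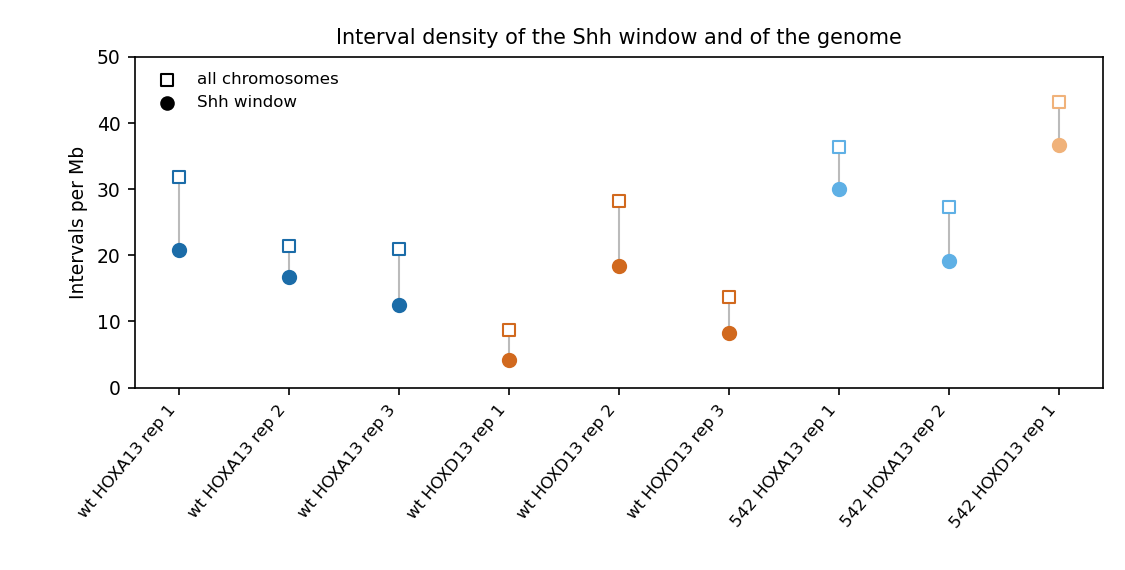
Intervals per Mb in the Shh window (filled circles) and over all chromosomes (open squares) in each of the 9 libraries. The circle lies below the square in 9 of 9, at 0.475 to 0.849 of its value.

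Within the window, intervals were sparse between Shh and Rnf32 and denser over Rnf32 and Lmbr1. In wt the 728.7 kb between Shh and Rnf32 held 5.72 ± 5.02 intervals per Mb (SD, n = 6), and the 182.4 kb from the start of Rnf32 to the end of Lmbr1 held 18.3 ± 8.95 (SD, n = 6). The ratio favoured Rnf32 and Lmbr1 in 6 of 6 libraries, with a mean log2 ratio of 2.184 ± 1.85 after 0.5 was added to each count (SD, n = 6; exact permutation of the signs, p = 0.031, adjusted 0.109), which did not pass the threshold. A library with no interval in either stretch would give 1.998 on this scale from the added 0.5 and the lengths alone. wt HOXD13 replicate 1, with 1 interval in each stretch, had this same value, so that its direction came from the lengths. wt HOXA13 replicate 3, with 0 intervals in the desert and 6 over Rnf32 and Lmbr1, carried much of the mean ratio, and without it the mean was 1.48. Its main summits at the promoters of Rnf32 (29196291) and Lmbr1 (29378137) both fell on the gene side of the bounds. Over the 6 wt libraries the Rnf32 promoter summit fell in the desert in 4 and on the gene side in 2, and the Lmbr1 promoter summit on the gene side in 1. With bounds widened by 1000 bp, so that both promoters joined the genes in every library, the ratio was 3.27, and 2.79 when wt HOXA13 replicate 3 was also left out, alternatives added after the data were seen. Without replicate 3 of either antibody, at the first bounds, it was 1.23 (exact permutation p = 0.125, the smallest that 4 libraries allow). Of the 23 sites in the desert, 17 were called in 1 list each.

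Most sites of the window were seen in few lists. Of the 41 sites called in wt, 3 (7.32%) were called in all 6 wt lists, against 10.5% of the 133473 wt sites of the genome. These were the promoters of Rbm33, Rnf32 and Lmbr1, and the same 3 were the only sites in all 9 lists (4.23% of 71, against 6.4%). HOXA13 alone accounted for 19 of the 41 (46.3%, against 37.1%) and HOXD13 alone for 6 (14.6%, against 19.3%), and 23 were in a single wt list (56.1%, against 49.4%). The wt HOXA13 lists held 57367 to 86941 intervals and the wt HOXD13 lists 23939 to 76838, and the part of list length in these shares was not tested. Of all 71 sites, 40 were called in 1 list only (56.3%, against 50.0%) and 30 were called in 542 lists only (42.3%, against 34.3%), 15 of them in 542 HOXD13 alone (21.1% of the 71, against 19.4%). Just 3 were in all 3 542 lists and no wt list (4.23%, against 2.25%). They lay in introns of Rbm33 (28375322 to 28376234 and 28390412 to 28390937) and in the desert (29000237 to 29000818, 533.3 kb from the start of Shh), at 0.244 to 0.642 read ends per M.

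In wt the share of summits with the HOX13 consensus did not differ from that beside them by more than the spread between libraries. The consensus lay within 25 bp of 4.76% ± 4.49 of main summits in wt (SD, n = 6) and in 3.99% ± 3.98 of windows of the same size 1000 bp to each side, a difference of 0.77 percentage points (exact permutation of the signs, p = 0.844, adjusted 0.844), and of 1.57 points without replicate 3 of either antibody (exact permutation p = 0.75). Over all main summits of the same lists it was 10.4% ± 2.15 (SD, n = 6) against 2.35% ± 0.11. The window held 5 to 25 summits per wt library, and the difference ran from −10.0 to 10.0 points between them. The shorter core, ATAAA or GTAAA on either strand, exceeded its controls in 6 of 6 wt libraries, by a mean of 18.1 percentage points (exact permutation p = 0.031, adjusted 0.073). In 542 HOXA13 the consensus share of the window was 11.1% and 13.0%, against 2.78% and 2.17% beside the summits (differences of 8.33 and 10.9 points). In 542 HOXD13 it was 15.9%, against 0 matches beside the summits, a difference of 15.9 points. All 3 of these libraries had the consensus more often at summits than beside them, and neither this nor the difference from wt was tested. In all, 12 of the 71 sites had the consensus at a main summit in at least 1 list, and 2 of these, the intron 5 site and the site past Mnx1, were among the 6 called in 8 or 9 lists.

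Sites that varied over the lists as the intron 5 site did were looked for among the 15395 sites called in the same 8 lists. Likeness was Pearson's r of log2 pileup per M read ends over those 8 lists, given as a description, since depth and library are shared by all sites and the median r was 0.668. The closest lay in Fgf10, a growth factor gene of the limb (chromosome 13, 118745936 to 118747082, r = 0.999), in Tmem178b (chromosome 6, 39903179 to 39904483, r = 0.995) and 6301 bp from Pla2r1 (chromosome 2, 60559609 to 60560878, r = 0.992).

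Genes of the hedgehog pathway, Shh among them, were read for context. The list also held limb regulators and targets of Shh, namely Hand2, Grem1, Etv4, Etv5, Twist1 and Tbx3. A gene counted as bound where it, with 10 kb to each side, held an interval. Of 24 listed genes, 17 (70.8%) were bound in all 6 wt lists, against 41.7% of all protein-coding genes, and the same 17 in all 9. The listed genes were longer, with a median of 22.95 kb against 17.4 kb, and the part of gene length in this count was not tested. Of the ligands of the pathway, Shh and Dhh were bound in 9 lists and Ihh in 3 wt lists and no 542 list. Ptch1, the receptor, and the coreceptor genes Gas1 and Boc had an interval within 1000 bp of a start in 9 lists, and Smo, which carries the signal across the membrane, in 6. Sufu, which holds back the GLI factors, had one in 9, and of the GLI genes Gli1 had one in 6, and Gli2 and Gli3 in 4 each. Hand2, which acts before Shh in the limb bud, and the ETS factor genes Etv4 and Etv5, which act on the ZRS, had one in 9 lists each, as did Twist1. Promoter intervals in all 9 lists were present at 9 of the 24 genes, against 19.1% of protein-coding genes. Among these 9 were the limb genes Hand2, Etv4, Etv5 and Twist1. In the pathway itself, Dhh and Hhip had a promoter interval in 0 lists, Shh in 1 and Scube2 in 2.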

How the data were processed

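Peak lists from CUT&RUN, deposited by the authors for each library separately, were analysed. The members and gene lists were chosen with earlier results of these data known. By the methods of the study and the processing notes in the labels, reads were trimmed (cutadapt) and mapped (Bowtie), on mm10 for wt and on a genome with the insert for 542. Pairs were then filtered (SAMtools), duplicates marked and kept (Picard), and both mates passed as read ends (bedtools) to MACS2, which extended each to 200 bp and called intervals at q 0.05 with no control. Among the deposited values, fold enrichment is the ratio of summit pileup over local background, and the −log10 p-value and −log10 q-value rest on a Poisson test of that pileup. The deposited score, an integer made from the q-value, was not used.

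Summits with equal interval bounds were joined, the main summit being that with the highest −log10 p. Fold enrichment and −log10 p were solved for pileup and background. In every library at least 99.1% of pileups were whole to within 0.01 read ends, and depth was taken from the lowest background. Genes came from the GENCODE basic set, and regulatory regions and sequence from RefSeq on GRCm38.p6, the assembly behind mm10. Introns of Lmbr1 are numbered on the transcript of 17 exons. Coordinates count from 1. Sites named by rule were those in Lmbr1 intron 5, within 1000 bp of a protein-coding start, in all 9 lists, or in most wt lists of 1 antibody and none of the other. The other single sites were chosen after their values were seen.

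Exact permutation tests, two-sided, compared libraries, and p was adjusted over 7 tests by the Benjamini-Hochberg method after a check on simulated data. A p-value here measures the spread between libraries, and not how unusual the window is among windows of the genome. The main tests took the wt libraries as separate, without the pairing by replicate number described below. Alternatives were stricter lists, other measures, bounds and motifs, each replicate left out, and the replicate number as a block. For the pairing, deviations from the antibody mean were correlated over 20312 merged strong intervals. Same-numbered wt libraries of HOXA13 and HOXD13 had r of 0.111, 0.143 and 0.348 for numbers 1, 2 and 3, and the numbers in the titles were taken as pairs. For numbers 1 and 2 the values do not favour that pairing. HOXA13 replicate 1 had 0.219 with HOXD13 replicate 2, and HOXA13 replicate 2 had 0.1455 with HOXD13 replicate 1. Replicate 3 of either antibody had r between −0.269 and −0.178 with replicates 1 and 2 of the other. Software was samtools 1.23.1, and Python 3.11.15 with matplotlib 3.10.9, pysam 0.24.0, scipy 1.17.1, pandas 2.3.3 and numpy 2.4.6.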

Additional observations from a re-analysis of the deposited data

Results flagged for a closer look

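The 542 HOXD13 library, a single library that entered no test, had a pileup of 1.48 per M read ends at its main ZRS summit, above that of every wt library that called the ZRS (0.426 to 0.851). The local background there was also higher, at 20.1 read ends beside 5.74 to 11.3 in those wt libraries. Its fold enrichment was 4.64, beside 2.97 to 4.11 in them. Of its intervals, 30.5% had a higher fold enrichment, against 30.8% in wt HOXD13 replicate 2 and 48.1% to 68.6% in wt HOXA13. The 542 HOXD13 library was the deepest (65.5 M read ends, M for mega), its label gives another stage, and its reads were mapped on the mutant genome. The part of these in the value was not tested. No group held the 4 or more libraries needed to look for single libraries that stand out.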

How the results depend on the processing

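Over the 7 tests, 85 of 91 alternatives kept the direction of the result, and 0 had an adjusted p under 0.05 by exact permutation, a threshold that 6 libraries cannot pass after adjustment over 7 tests. The relative density of 542 against wt HOXA13 (0.18) turned to −0.39 with the 10000 strongest intervals and to −0.070 between the end of Shh and the end of Lmbr1. The difference of wt HOXA13 and HOXD13 at the intron 5 site turned to −0.062 with summits inside the ZRS only, chosen after seeing the data. The consensus difference turned to −0.77 points with a −log10 q of at least 5, to −1.08 without wt HOXA13 replicate 2 and to −0.079 without wt HOXD13 replicate 3, in a range of −1.08 to 2.92 when each replicate was left out. The cause was not tested. With each replicate left out, the window against the genome ranged from −0.76 to −0.61, the antibodies from 0.10 to 0.32, the genotypes from 0.07 to 0.30, Rnf32 and Lmbr1 against the desert from 1.48 to 2.51, and the intron 5 site from 0.03 to 0.74 between antibodies and from 0.61 to 1.21 between genotypes. With the replicate block the values were −0.69, 0.23, 0.098, 2.184, 0.15, 0.62 and 0.77 in the order of window against genome, antibodies, genotypes, desert, intron 5 between antibodies and between genotypes, and consensus, and no call changed. The block left n = 3 for window against genome and for the desert, each with p = 0.25 by exact permutation of the signs. In the desert comparison, 2 of 6 libraries with a fold enrichment of at least 5 and 1 of 6 among the strongest 10000 had no interval in either part, where the added 0.5 alone gives 1.998 on the log2 scale. With a fold enrichment of at least 5, no value could be had for the density against the genome, for the antibodies or for the consensus, since a library had no interval. On the full lists, none could be had for the desert by bases covered or with nothing added to the counts. There wt HOXA13 replicate 3 had 0 intervals in the desert. The 71 sites became 40 at a −log10 q of at least 5 and 17 at a fold enrichment of at least 5, and the 3 sites in all 9 lists became 1 and 0. At the depth of the shallow wt HOXD13 lists, pileups under 0.325 to 0.337 per M read ends could not be called at genome background.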
